A study of Mus musculus with 6 samples.

Results

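The semaphorin guidance system was followed through 10 of its genes in atrioventricular canal regions of mouse hearts at embryonic day 15.5. They were the secreted ligands Sema3a, Sema3c and Sema3d, the membrane-bound ligand Sema6a, the plexin receptors Plxna2, Plxna4, Plxnb2 and Plxnd1, and the neuropilin co-receptors Nrp1 and Nrp2. The genes were chosen by name, and all 10 were found among the 18810 genes of the deposited table. The study compared 3 embryos that lack the tendon and valve transcription factor Scleraxis (Scx-/-) with 3 wild-type littermates (Scx+/+), all labelled C57BL/6 and without any further treatment. Tissue around the mitral, tricuspid and aortic valves was dissected and sequenced as a whole, with 1 library per sample. The values are RPKM, reads per kilobase of exon scaled to library depth. They take account of exon length and depth but not of differences in composition between libraries, which are described below.

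Semaphorins are guidance cues that steer axons, neural crest cells and endothelial cells. The secreted class 3 ligands generally bind a neuropilin, which has little signalling capacity of its own, and the signal is passed on by a plexin, whose cytoplasmic part acts on small GTPases of the Ras and Rap families. Membrane-bound semaphorins bind plexins directly. In the heart, semaphorin signalling is known for septation of the outflow tract, patterning of vessels and guidance of cardiac nerves, and neuropilins also serve VEGF receptors in endothelium.

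No difference between genotypes was established for any of the 10 genes. Sema3a and Nrp2 were lower in every Scx-/- library than in any Scx+/+ library, as were 2.31% of all genes. In limma, 0 of the 10 were at an unadjusted p below 0.05, where 3.89% of all genes were, and 0 were so after Benjamini-Hochberg adjustment (smallest adjusted p of the 10 from limma, 0.967). A gene-by-gene analysis of variance without pooled variances also gave 0. Below, "called" means an unadjusted p below 0.05 in limma, the threshold of the study's methods. The log2 fold changes were below 0 for 8 genes and above it for 2, with a median of -0.33 and a range from -0.59 to 0.30, beside a median of 0.10 and an SD of 0.49 over all genes. The 4 plexins all lay below 0 in Scx-/- and 2 of the 3 secreted ligands above it.

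Libraries held 46429988 to 68571049 reads, recovered from RPKM and exon length, and every one of the 10 genes had at least 103 reads in every library. Scx+/+ replicate 2 stood apart, with the most genes at the lowest value of the table (2252, against 1088 to 1465). The 10 most abundant genes made up 56.9% of all RPKM in that library, and 30.7% to 43.9% elsewhere. Scx-/- replicate 3 was within the range of the other libraries on both measures (1333 genes and 33.8%). Scx-/- replicate 3 and Scx+/+ replicate 2 each had the highest cardiomyocyte marker sum of their genotype. Scx as a whole gene was 33.6, 18.6 and 82.9 RPKM in the libraries labelled Scx-/- and 29.5, 58.3 and 26.0 RPKM in those labelled Scx+/+. Exon 1, in which the study checked the null allele, has no value of its own here, so the whole-gene value does not check the labels. The dissected tissue carried both muscle and valve markers. Cardiomyocyte markers (10 of 10 in the table) summed to 22763, 18816 and 27283 RPKM in Scx-/- and 19022, 29871 and 16721 RPKM in Scx+/+. Valve and cushion mesenchyme markers (10 of 10) summed to 404 to 541 RPKM and 374 to 434 RPKM. The valve sum was the highest of its genotype in Scx-/- replicate 3 and Scx+/+ replicate 2, as was Postn (386.5 and 270.7 RPKM). Its members did not move together, since 7 of the 10 were lowest in each of those libraries. In such whole tissue, fewer cells of a type and less RNA per cell cannot be told apart.

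By level, Nrp1 stood far above the other genes, with a mean of 44.6 RPKM over the 6 libraries, higher than 90.5% of all genes in the table. It exceeded the next gene, Plxnb2 (mean 7.96 RPKM), in 6 of 6 libraries, by a median of 2.59 on the log2 scale. Sema3c (5.20 RPKM), Plxnd1 (4.77 RPKM) and Sema3d (4.70 RPKM) formed a middle group. Their order was not fixed across libraries, since Sema3c exceeded Plxnd1 in 2 of 6 libraries and Plxnd1 exceeded Sema3d in 4 of 6. Nrp2 (3.41 RPKM) and Sema3a (3.31 RPKM) were also not separated, with a log2 difference in level between -0.07 and 0.17. Sema3a was above Plxna4 (2.02 RPKM) in 6 of 6 libraries, Plxna4 above Plxna2 (1.70 RPKM) in 5 of 6, and Plxna2 above Sema6a (0.591 RPKM) in 6 of 6. Sema6a was thus the lowest of the set, higher than 17.6% of all genes.

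**Figure D1:**
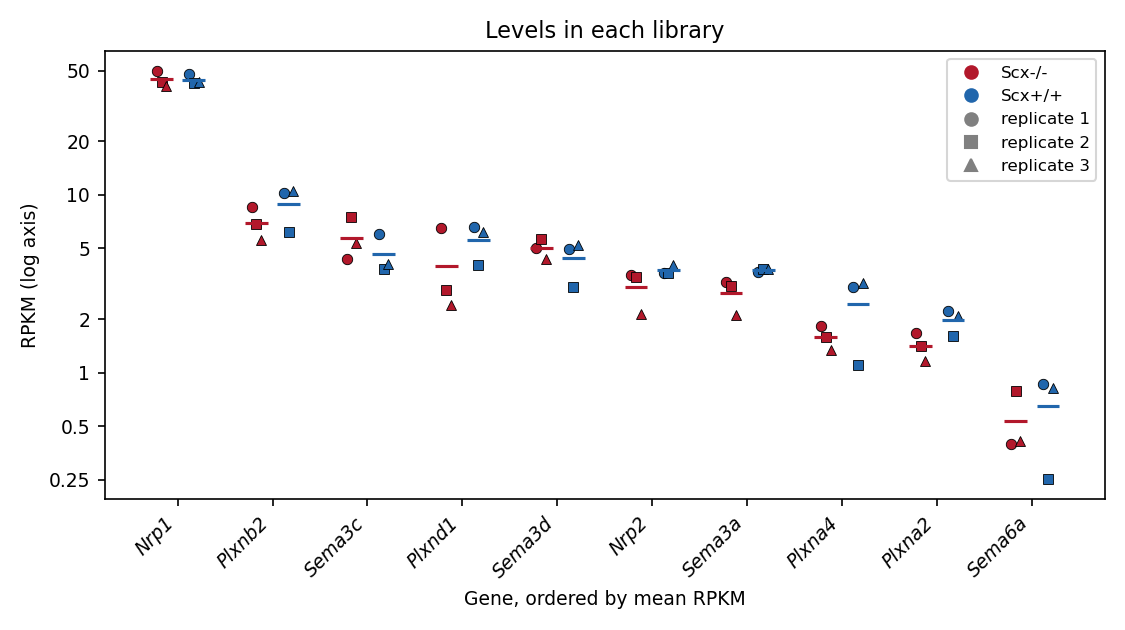
RPKM of the 10 genes in each library on a log axis, ordered by mean level, with Scx-/- in red, Scx+/+ in blue, the replicate number as the symbol and a bar at each genotype's mean. Nrp1 lies above all other genes in every library, and the red and blue points are apart only for Sema3a and Nrp2.

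Sema3a is a repulsive cue for sympathetic axons and is known for patterning the innervation of the heart. It was 3.25, 3.08 and 2.11 RPKM in Scx-/- replicates 1 to 3 and 3.70, 3.85 and 3.85 RPKM in Scx+/+ replicates 1 to 3. The genotypes were apart, all Scx-/- values being the lower, with the lowest value in Scx-/- replicate 3 and a narrow range in Scx+/+. The level in Scx-/- was 0.735 times that in Scx+/+ on the log2(RPKM + 0.1) scale, with a 95% interval from 0.496 to 1.09 (log2 fold change -0.44 ± 0.25 SE, limma adjusted p = 0.967). An exact permutation test gave a two-sided p of 0.1, the smallest that 3 libraries against 3 allow. Over all genes, the median log2 fold change was 0.105, and with the median of each library set to 0 the log2 fold change of Sema3a was -0.55 and it was called (unadjusted p = 0.0396 from limma), where 3.43% of all genes were. With quantile normalization it was -0.51 and also called, where 3.75% of all genes were. Without Scx-/- replicate 3 it was -0.26 and not called.

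Sema3c attracts cardiac neural crest cells and is known for its part in dividing the outflow tract. It was 4.38, 7.51 and 5.36 RPKM in Scx-/- replicates 1 to 3 and 5.99, 3.83 and 4.10 RPKM in Scx+/+ replicates 1 to 3. The genotypes overlapped, with Scx-/- replicate 2 the highest and Scx+/+ replicate 2 the lowest of the 6. The log2 fold change was 0.30 (95% interval -0.33 to 0.92). Sema3d, a ligand made by epicardium and other mesothelium that is known for its role in patterning pulmonary veins, was 5.01, 5.64 and 4.35 RPKM in Scx-/- and 4.95, 3.04 and 5.20 RPKM in Scx+/+. Of these values, 5 lay between 4.35 and 5.64 RPKM while Scx+/+ replicate 2 was lower, and without that library the log2 fold change went from 0.21 to -0.03. The ratio of Sema3c to Sema3a within a library, which does not depend on how libraries are scaled, was 1.35, 2.44 and 2.54 in Scx-/- and 1.62, 0.996 and 1.07 in Scx+/+. These ratios overlapped (exact permutation test of the log2 difference, two-sided, p = 0.2), and the pair was picked after its values were seen. Epicardial markers (5 of 5), as one source of Sema3d, summed to 33.4, 34.6 and 26.5 RPKM in Scx-/- and 24.4, 21.6 and 25.6 RPKM in Scx+/+, without overlap. Tcf21 and Aldh1a2 were called higher in Scx-/-. Of all 18810 genes, 3.89% were called and 1352 were higher in every Scx-/- library. Within each genotype the epicardial sum had the same order of libraries as Sema3d, but its members did not move together. Wt1, Upk3b and Tbx18 were lowest in Scx-/- replicate 3 and Scx+/+ replicate 2, where Tcf21 was highest, and Aldh1a2 was lowest in neither. The part of epicardium in the Sema3d values was not tested. Summed, the 3 secreted ligands came to 12.6, 16.2 and 11.8 RPKM in Scx-/- and 14.6, 10.7 and 13.2 RPKM in Scx+/+, overlapping values (exact permutation test, two-sided, p = 0.7).

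Scx is a basic helix-loop-helix factor, a class that binds E-boxes, so the promoters of the genes were searched for the letters CANNTG, which read the same on both strands. RefSeq gave windows of 300 bases (250 before to 50 after the start, build GRCm38.p6, which differs from the mm9 of the table) for 8 of the genes, 9 windows in all. Plxna4 and Sema6a were not searched. Of these, 5 held an E-box, against 72.3% of all 32851 windows. Sema3d held 3, Sema3a and Sema3c 2 each, and Nrp2 and 1 of the windows of Plxnb2 held 1, while Nrp1, Plxna2, Plxnd1 and the other window of Plxnb2 held none. The windows of the 2 genes whose genotypes did not overlap, and of Sema3c, whose log2 fold change was the highest of the set, are shown with E-boxes in capitals. They lie at chr5:13396534-13396833 (Sema3a, plus strand), chr5:17574566-17574865 (Sema3c, plus strand) and chr1:62703067-62703366 (Nrp2, plus strand). Sema3a as measured here begins at chr5:13125593 on mm9, and whether its window lies at that start or at another one was not checked.
Sema3a: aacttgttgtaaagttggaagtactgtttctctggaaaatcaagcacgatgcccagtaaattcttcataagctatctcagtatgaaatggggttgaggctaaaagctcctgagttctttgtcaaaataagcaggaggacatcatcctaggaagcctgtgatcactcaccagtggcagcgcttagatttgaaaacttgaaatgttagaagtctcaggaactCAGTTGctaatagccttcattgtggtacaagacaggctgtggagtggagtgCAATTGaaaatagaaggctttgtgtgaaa
Sema3c: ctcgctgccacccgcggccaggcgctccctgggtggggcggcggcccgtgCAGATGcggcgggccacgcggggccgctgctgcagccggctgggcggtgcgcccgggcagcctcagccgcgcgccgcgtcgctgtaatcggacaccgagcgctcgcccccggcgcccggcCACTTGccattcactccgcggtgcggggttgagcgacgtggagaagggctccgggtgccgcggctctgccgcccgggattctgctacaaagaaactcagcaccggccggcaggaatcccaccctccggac
Nrp2: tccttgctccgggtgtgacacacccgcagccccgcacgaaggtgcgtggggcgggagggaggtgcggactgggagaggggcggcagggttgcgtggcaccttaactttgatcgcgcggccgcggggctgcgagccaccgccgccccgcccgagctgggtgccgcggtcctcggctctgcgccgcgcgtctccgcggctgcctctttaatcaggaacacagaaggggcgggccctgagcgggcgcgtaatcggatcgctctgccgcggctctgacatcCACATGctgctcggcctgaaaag
The Sema3a window held CAGTTG and CAATTG and had a GC content of 41.3%, the Sema3c window held CAGATG and CACTTG at 75.7%, and the Nrp2 window held CACATG at 70.7%. An E-box of this kind was thus present in genes on either side of 0, and a match of letters is a description and not a binding site.

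Sema6a is a transmembrane ligand of A-type plexins, among them Plxna2 and Plxna4. It was 0.395, 0.794 and 0.415 RPKM in Scx-/- and 0.869, 0.253 and 0.818 RPKM in Scx+/+, on 103 to 491 reads. Both genotypes spanned low and high values, and the log2 fold change of -0.15 had the widest interval of the set (-1.39 to 1.08). Leaving out single libraries moved it between -0.63 and 0.10.

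The 4 plexins shared a pattern across libraries. Plxna2, an A-type plexin of neural crest cells, was 1.68, 1.42 and 1.17 RPKM in Scx-/- and 2.22, 1.61 and 2.08 RPKM in Scx+/+. Plxna4, an A-type plexin used by Sema3a and Sema6a, was 1.82, 1.59 and 1.35 RPKM in Scx-/- and 3.04, 1.11 and 3.20 RPKM in Scx+/+. Within each genotype the lowest value of both genes was in the libraries named above, Scx-/- replicate 3 and Scx+/+ replicate 2. Plxnb2, a receptor of class 4 semaphorins, was 8.50, 6.83 and 5.58 RPKM in Scx-/- and 10.2, 6.16 and 10.5 RPKM in Scx+/+. Plxnd1, an endothelial plexin known for outflow tract and vessel patterning, was 6.55, 2.92 and 2.41 RPKM in Scx-/- and 6.57, 4.02 and 6.15 RPKM in Scx+/+. The same 2 libraries were the lowest of their genotype for both, and for Plxnd1 Scx-/- replicate 1 lay within the Scx+/+ range. For each of the 4 plexins the genotypes overlapped.

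As fold changes, the plexins ran from -0.34 for Plxnb2 (95% interval -0.94 to 0.26) through -0.44 for Plxna2 (-1.12 to 0.24) and -0.47 for Plxna4 (-1.42 to 0.47) to -0.59 for Plxnd1 (-1.45 to 0.27). Every interval held 0. Their sum was 18.5, 12.8 and 10.5 RPKM in Scx-/- and 22.0, 12.9 and 21.9 RPKM in Scx+/+ (exact permutation test, two-sided, p = 0.2). Single libraries decided the calls. Without Scx+/+ replicate 2, Plxna4 (log2 fold change -0.94) and Plxnb2 (-0.58) were called lower in Scx-/-, where 8.23% of all genes were called. Without Scx-/- replicate 1, Plxnd1 (-1.02) was called, where 3.07% were. With both Scx-/- replicate 3 and Scx+/+ replicate 2 left out, Plxna4 (-0.84) alone of the 10 was called, where 8.44% were.

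**Figure D2:**
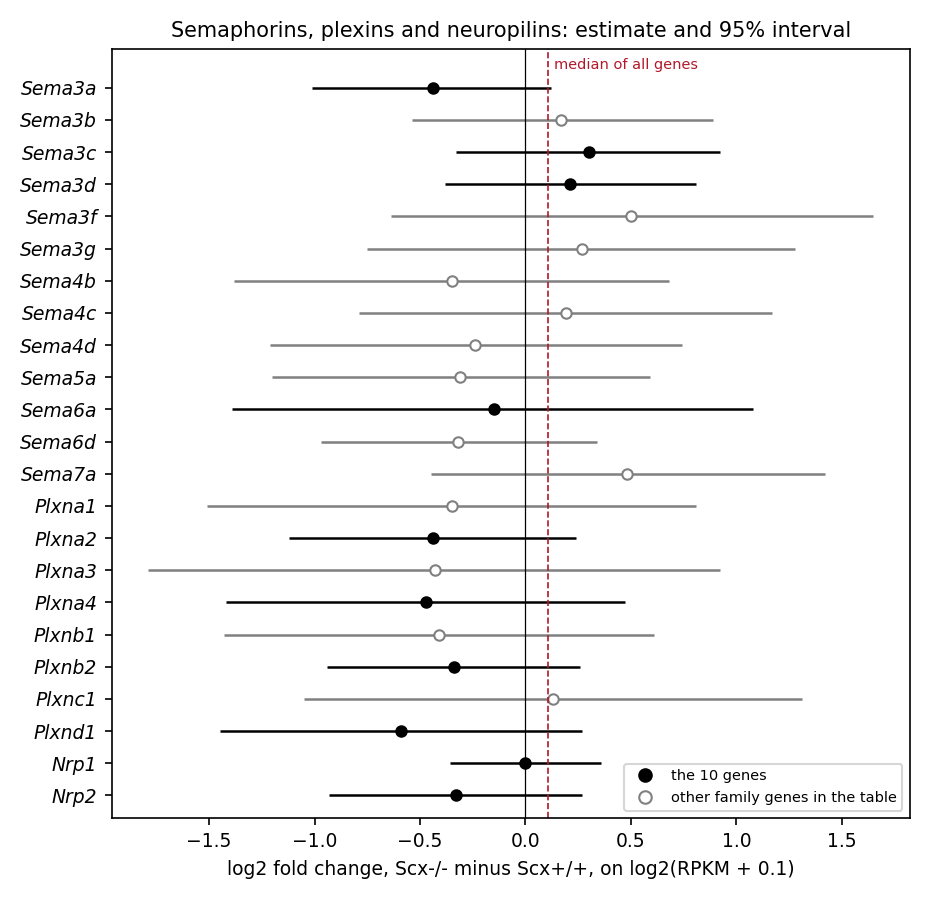
Log2 fold change of Scx-/- over Scx+/+ with its 95% interval from limma for the 10 genes (filled) and the other semaphorins and plexins of the table (open), with the median of all genes as a dashed line at 0.105. Every interval spans 0, and 7 of the 8 plexins lie left of 0.

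The pattern extended to the whole plexin family. Of 9 mouse plexins on the list, 8 were in the table, and all 8 had their lowest Scx-/- value in replicate 3 and their lowest Scx+/+ value in replicate 2. Among the 13827 genes that averaged 1 RPKM or more, 46.0% had their lowest Scx-/- value in replicate 3 and 40.4% their lowest Scx+/+ value in replicate 2. Of the 10 genes followed here, 8 were lowest in Scx-/- replicate 3 and 8 in Scx+/+ replicate 2. The summed cardiomyocyte markers and exon length moved with this pattern, though not every marker did. The cardiomyocyte sum was the highest of its genotype in the same 2 libraries (27283 and 29871 RPKM, against 16721 to 22763 RPKM in the other 4), as was Scx itself. Of its 10 markers, 9 were highest in Scx+/+ replicate 2, all but Ryr2, which was lowest there, and 6 were highest in Scx-/- replicate 3 (Myh6, Myl2, Tnnt2, Tnni3, Actc1 and Ryr2), where Myl7 and Nppa were lowest. Ryr2 was the 1 marker of the 10 called, lower in Scx-/- (log2 fold change -0.46), where 3.89% of all genes were called. The pattern was not particular to plexins. Of 10 valve and cushion mesenchyme markers, 7 were lowest in Scx-/- replicate 3 and 7 in Scx+/+ replicate 2. Postn was highest in both, and Msx2 in Scx+/+ replicate 2. Of 6 macrophage markers, 5 and 4 were lowest there, with Emr1 highest in Scx+/+ replicate 2. The co-receptors Met, Erbb2 and Ptk7 were lowest in both libraries, and Itga1 and Itgb1 highest in both. The parts of muscle and of other cell types in the plexin values were not tested. All 10 genes have long exon sequences, from 5907 bases in Nrp1 to 15093 bases in Plxna2, and among the fifth of genes with the longest exons the median log2 ratio of a library to the gene's mean was -0.14 in Scx-/- replicate 3 and -0.22 in Scx+/+ replicate 2, whereas the remaining 4 ranged from 0.04 to 0.16. Among genes with the shortest exons Scx+/+ replicate 2 was at 0.20 and the other Scx+/+ libraries at -0.18, while Scx-/- replicate 3 (0.09) was not set apart from Scx-/- replicate 1 (0.10).

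When each library was adjusted for exon length and GC content, 7 of the 8 plexins were still lowest in Scx+/+ replicate 2 and 3 of 8 in Scx-/- replicate 3. Of the 10 genes, 5 were then lowest in Scx+/+ replicate 2 and 4 in Scx-/- replicate 3. The log2 fold changes of the 4 plexins were then -0.27 for Plxnb2, -0.32 for Plxna2, -0.36 for Plxna4 and -0.51 for Plxnd1, and 0 of the 10 genes were called, where 3.54% of all genes were. Sema3a kept a log2 fold change of -0.44 in that fit.

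**Figure D3:**
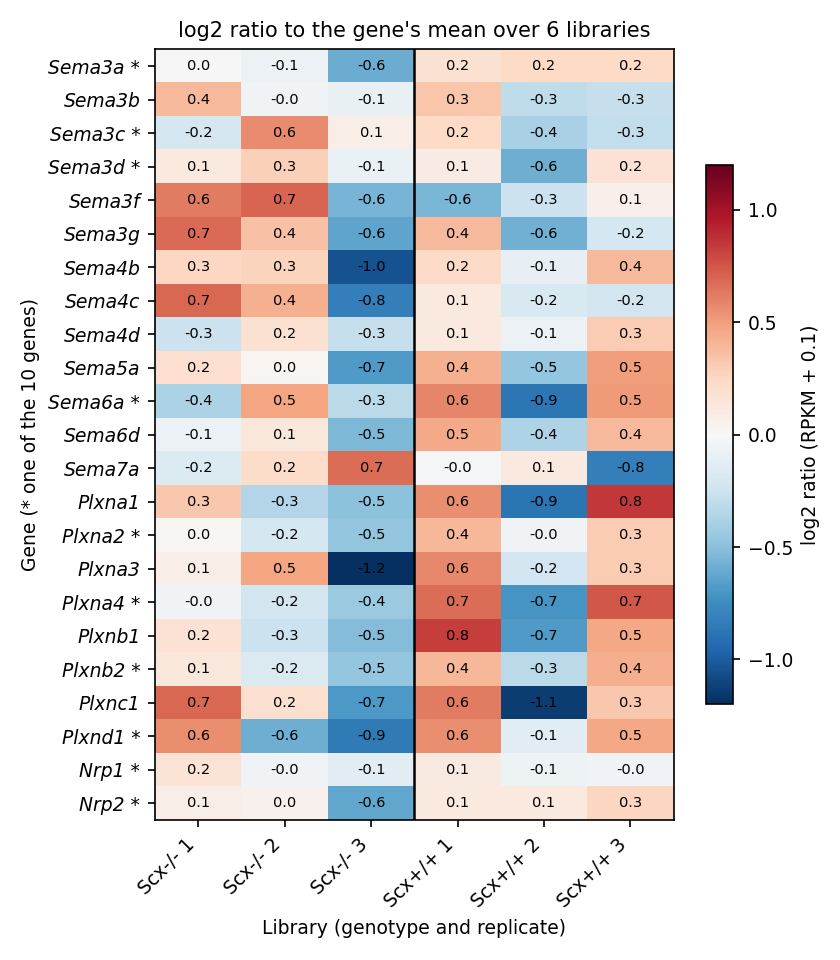
Log2 ratio of each library to the gene's mean over the 6 libraries, on RPKM + 0.1, for the semaphorins, plexins and neuropilins of the table, with blue for below and red for above the mean. All 8 plexins are below their mean in Scx-/- replicate 3 and in Scx+/+ replicate 2, though Plxna2 barely so in Scx+/+ replicate 2 (-0.04). Plxna3 is at the lowest value of the table in Scx-/- replicate 3.

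**Figure D4:**
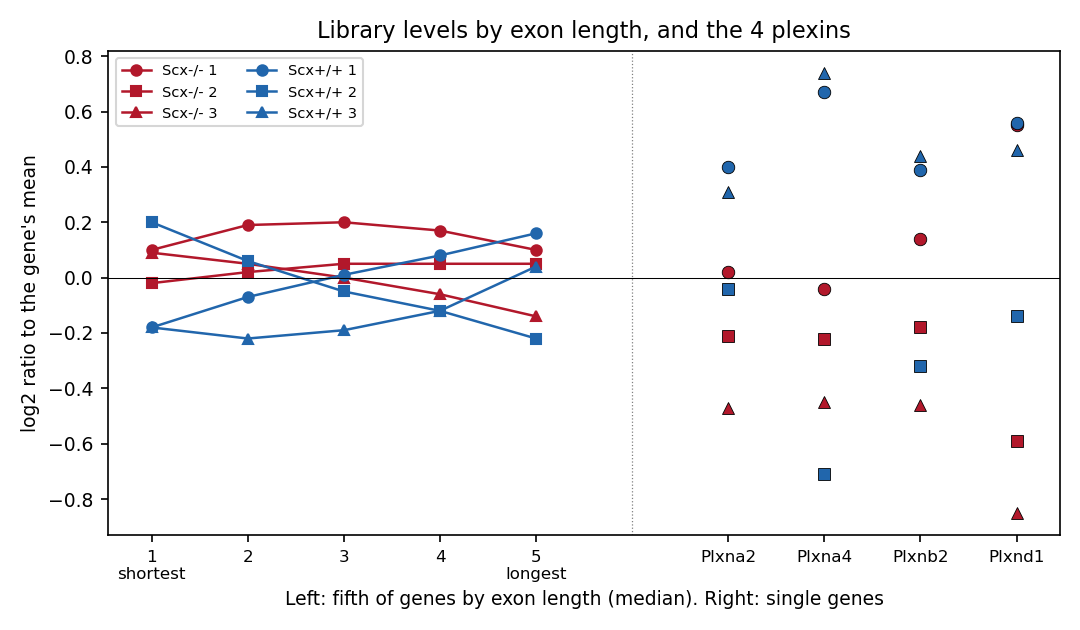
Median log2 ratio of each library to the gene's mean in 5 equal groups of genes by exon length (left, lines) and the same ratio for the 4 plexins (right, points), with Scx-/- in red and Scx+/+ in blue. In the fifth with the longest exons Scx-/- replicate 3 (-0.14) and Scx+/+ replicate 2 (-0.22) are lowest, as they are within their genotype for each plexin.

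Nrp1, the co-receptor of Sema3a and of VEGF in endothelium, was the steadiest gene of the set. It was 49.7, 43.2 and 40.8 RPKM in Scx-/- and 48.0, 42.5 and 43.1 RPKM in Scx+/+, on 11654 to 17446 reads. The values of the genotypes interleaved, and the 95% interval of the ratio of Scx-/- to Scx+/+ ran from 0.780 to 1.28. Nrp2, a co-receptor of Sema3c and of VEGF-C that marks venous and lymphatic endothelium, was 3.55, 3.47 and 2.14 RPKM in Scx-/- and 3.64, 3.65 and 4.03 RPKM in Scx+/+. The genotypes did not overlap, with or without Scx-/- replicate 3, but Scx-/- replicate 1 and Scx+/+ replicate 1 were nearly equal. An exact permutation test gave a two-sided p of 0.1, the smallest possible here. Most of the mean difference came from Scx-/- replicate 3. The log2 fold change was -0.33 ± 0.27 SE (limma adjusted p = 0.967), and -0.10 without that library. Lymphatic markers (3 of 3) summed to 15.6, 13.4 and 11.2 RPKM in Scx-/- and 15.9, 15.4 and 16.1 RPKM in Scx+/+, lowest in the same library as Nrp2. That low sum came from Prox1 and Pdpn, while Lyve1 had its highest Scx-/- value there, and their part in the Nrp2 values was not tested. Nrp1 exceeded Nrp2 by 15.2 ± 3.48 times in Scx-/- and 11.8 ± 1.26 times in Scx+/+ (SD over the 3 libraries of each), and the ranges overlapped.

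Sema3a and Nrp2 were the 2 of the 10 genes whose genotypes did not overlap, both lower in Scx-/-. Over all genes, 9.50% did not overlap in either direction and 2.31% were lower in every Scx-/- library, and 1.06% were called lower. With the median of each library set to 0, Plxna2 joined them, and 5.37% of all genes were then lower in every Scx-/- library. Adjusted for exon length and GC content, only Plxna2 did not overlap, and 4.62% of all genes were lower in every Scx-/- library.

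The remaining semaphorins and plexins of the list gave 0 calls in limma at an unadjusted p below 0.05, after adjustment, or without pooled variances. Of these genes, Sema3f was called without Scx-/- replicate 3, where 821 of all 18810 genes were. Plxnb1 was called without Scx+/+ replicate 2, where 8.23% were. Of 4 other class 3 semaphorins, Sema3b, Sema3f and Sema3g were in the table, with log2 fold changes from 0.17 to 0.50. Together with Sema3c and Sema3d, 5 of the 6 class 3 semaphorins lay above 0 and Sema3a alone below it. Of 12 other membrane-bound semaphorins, 6 were in the table, led by Sema6d at 3.61 to 7.27 RPKM, and their log2 fold changes ran from -0.35 to 0.48. The other plexins, Plxna1, Plxna3, Plxnb1 and Plxnc1, ran from -0.43 to 0.13. Sema3e, the direct ligand of Plxnd1, and Plxnb3 are among 8 family genes not analysed here.

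Of 8 VEGF ligands and receptors, which share the neuropilins, 0 were called in limma, and without pooled variances 0 were. Kdr, the main VEGF receptor of endothelium, was 23.2, 18.8 and 14.4 RPKM in Scx-/- and 24.4, 22.3 and 23.2 RPKM in Scx+/+. Of the alternatives run, it was called lower with the median set to 0, with quantile normalization and without Scx-/- replicate 1. Those fits called 3.43%, 3.75% and 3.07% of all genes. The ligands Vegfa and Vegfb had log2 fold changes of 0.14 and -0.25. Endothelial and endocardial markers (9 of 9 in the table, 0 called) summed to 141.9, 125.2 and 123.0 RPKM in Scx-/- and 138.0, 129.0 and 118.0 RPKM in Scx+/+. In Scx-/-, Plxnd1, Kdr and this sum had the same order of libraries, while in Scx+/+ the sum was lowest in replicate 3 and Plxnd1 in replicate 2. Of the 9 markers, 6 were lowest in Scx-/- replicate 3, where Emcn was highest. The part of endothelium in the Plxnd1 values was not tested.

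Among the cytoplasmic effectors, 1 of 32 identifiers was called (3.12%), near the 3.89% of all genes. That gene, Rap1a, a small GTPase of the family on which the plexin GAP domain acts, was 33.3, 31.3 and 36.4 RPKM in Scx-/- and 24.4, 26.5 and 22.1 RPKM in Scx+/+. It was higher in every Scx-/- library, with a log2 fold change of 0.47 ± 0.16 SE (limma adjusted p = 0.967). Its paralogue Rap1b was 35.8, 38.0 and 41.5 RPKM in Scx-/- and 36.7, 32.8 and 33.4 RPKM in Scx+/+ and was not called. Adjusted for exon length and GC content, Rap1a was not called.

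The other effectors and co-receptors averaging 10 RPKM or more were not called. Of the small GTPases that act on the cytoskeleton, Rhoa was at 75.4 ± 7.38 RPKM in Scx-/- and 69.4 ± 4.90 RPKM in Scx+/+ and Rac1 at 28.6 ± 4.80 RPKM and 28.6 ± 5.24 RPKM (SD, n = 3 each). The actin-severing protein cofilin (Cfl1) was 253 ± 43.5 RPKM and 248 ± 27.9 RPKM. The collapsin response mediators Dpysl2 and Dpysl3, which carry the Sema3a signal to microtubules, were 12.4 ± 2.22 RPKM and 70.2 ± 16.8 RPKM in Scx-/- and 13.8 ± 3.28 RPKM and 64.2 ± 14.9 RPKM in Scx+/+. Mical2, of the oxidoreductase family that disassembles actin, was 9.83 ± 1.30 RPKM in Scx-/- and 12.6 ± 2.21 RPKM in Scx+/+. It was called lower with the median set to 0, with quantile normalization and without Scx+/+ replicate 2, where 3.43%, 3.75% and 8.23% of all genes were called. Log2 fold changes of Rnd3, Arhgef12, Grlf1, Gipc1 and Ranbp9 lay between -0.21 and 0.24, and those of the integrins Itgb1 and Itga1, which serve Sema7a, were 0.22 and -0.21.

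Neurons and glia, the best known targets of these cues, left little signal. Neuronal markers, of which 4 were analysed here, summed to 3.19, 2.97 and 1.71 RPKM in Scx-/- and 3.19, 4.47 and 3.80 RPKM in Scx+/+. Like Sema3a the sum was lowest in Scx-/- replicate 3, where Tubb3 and Prph were at the lowest value of the table but Stmn2 was not at its lowest, and their part in the Sema3a values was not tested. Schwann cell and neural crest glia markers, of which 3 were analysed here, summed to between 1.88 and 3.2 RPKM in all libraries. Smooth muscle markers (4 of 4) summed to 475 to 669 RPKM in Scx-/- and 444 to 539 RPKM in Scx+/+, macrophage markers (6 of 6) to 28.0 to 49.1 RPKM and 35.4 to 39.8 RPKM, and erythroid markers (6 of 6) to 9503 to 14139 RPKM and 7751 to 13925 RPKM. Of the macrophage markers 1 was called, Cd68, higher in Scx-/- (log2 fold change 1.48), where 3.89% of all genes were called. Cd68 was at the lowest value of the table in Scx+/+ replicate 2.

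On the mm9 assembly, Sema3a (chr5:13125593-13602565), Sema3c (chr5:17080099-17236086) and Sema3d (chr5:12383166-12588943) share chromosome 5. Nrp2 (chr1:62749859-62865269) and Plxna2 (chr1:196446023-196643063) lie on chromosome 1, Plxna4 (chr6:32094565-32538192) and Plxnd1 (chr6:115904829-115945023) on chromosome 6, Nrp1 (chr8:130882973-131029362) on chromosome 8 and Sema6a on chromosome 18. Plxnb2 (chr15:88985979-89011218) shares chromosome 15 with Scx, from which it lies 12.7 Mb away. Exons of Plxna4 and Nrp1 share 110 and 80 bases with another annotated gene, Gm13851 and Mir1903, and those of the other 8 genes share none. The identifiers are ENSMUSG00000028883 for Sema3a, ENSMUSG00000028780 for Sema3c, ENSMUSG00000040254 for Sema3d, ENSMUSG00000019647 for Sema6a, ENSMUSG00000026640 for Plxna2, ENSMUSG00000029765 for Plxna4, ENSMUSG00000036606 for Plxnb2, ENSMUSG00000030123 for Plxnd1, ENSMUSG00000025810 for Nrp1 and ENSMUSG00000025969 for Nrp2.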

How the data were processed

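Total RNA of 3 Scx-/- and 3 Scx+/+ samples was sequenced on an Illumina instrument. The authors aligned reads with TopHat 1.4.1 to mm9, counted them over Ensembl exons with easyRNASeq and deposited RPKM, keeping genes with enough reads in any library and replacing low values with a common value (0.0949 RPKM in the table, which none of the 10 genes takes). The strand used in counting is not given in the sources used here.

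Identifiers were named from the GENCODE annotation of mm9 (18695 of 18810). Read numbers, worked back from RPKM, were whole, within 0.1 read, for 98.45% to 98.57% of values under 1000 reads. They describe depth only, and no count test was run. Genotypes were compared with limma 3.58.1 (R 4.3.3) on log2(RPKM + 0.1) with an intensity trend, no covariate and adjustment over 18810 genes. That scale understates fold changes of low genes. limma's 95% intervals and standard errors are from the same fit. With 3 libraries a genotype, p-values measure only the spread between these samples.

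The members and gene lists were chosen with earlier results of these data known. Named were the 10 genes and the pathway genes that were called or had a mean of at least 10 RPKM, and markers were summed by list. Simulated data served to test the scripts. Alternatives were pseudocounts of 0.01 and 1, a mean of at least 1 RPKM, no trend, analysis of variance per gene, median centring, quantile normalization, a replicate block and leaving out each library. Added after seeing the data were an adjustment of each library for exon length and GC content by splines and leaving out Scx-/- replicate 3 with Scx+/+ replicate 2.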

Additional observations from a re-analysis of the deposited data

How the results depend on the processing

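Of 159 values of the 10 genes under alternatives, 146 kept their direction and side of the threshold, 6 passed the threshold and 7 changed sign. Sign changes were in genes near 0, with each library left out in turn giving -0.08 to 0.06 for Nrp1, -0.63 to 0.10 for Sema6a and -0.03 to 0.35 for Sema3d, and 0.03 for Nrp1 with Scx-/- replicate 3 and Scx+/+ replicate 2 both left out. Of the 10 genes, 1 was called with the median set to 0, 1 with quantile normalization (Sema3a in both), 1 with both of those libraries left out (Plxna4) and 0 to 2 with each library left out. Of 58 pathway identifiers, 1 was called in the fit reported, where 3.89% of all genes were. With the median set to 0 there were 5, where 3.43% were, and with quantile normalization 5, where 3.75% were. Adjustment for exon length and GC content gave 2, where 3.54% were. Without pooled variances 2 were called, beside 865 of all genes. Leaving out each library gave 1 to 6, with 6 without Scx+/+ replicate 2, where 8.23% were. Mical3 has 2 identifiers, so the counts of 5 are 4 genes, the 2 with adjustment are 1 gene and the 6, without Scx+/+ replicate 2, are 5 genes. Over all genes, 731 were called (531 higher, 200 lower in Scx-/-), 646 with the median set to 0 (281 higher, 365 lower), 705 with quantile normalization (352 higher, 353 lower), 662 with that adjustment (300 higher, 362 lower), 1587 with both libraries left out and 539 to 1549 with each library left out, the highest without Scx+/+ replicate 2. The cause of these shifts was not tested. With the replicate number as a block, 573 genes were called and 0 of the 10. Same-numbered samples did not deviate together (correlations of 0.092, -0.22 and -0.188), which gave no sign that the numbers pair the samples. With 3 samples a genotype, this check cannot exclude a pairing. Where 1 library was left out, the spread was pooled over both genotypes.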
